A study of Mus musculus with 4 samples.

Results

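The genes described here are 10 apolipoproteins, lipoprotein assembly factors and carrier proteins: Apoe, Apom, Apoa1, Apoa2, Apob, Apoh, Mttp, Pltp, Ttr and Fabp1. They are grouped as hepatic-type genes, and Hnf4a drives the transcription of several of them in liver, though not necessarily of each. They were chosen by symbol, and all 10 were found among 22761 gene names present in all 4 expression tables. The tables come from RNA sequencing of whole mouse kidneys at E18.5, shortly before birth, in embryos of mixed strain that carried a conditional (floxed) allele of the nuclear receptor gene Hnf4a. The control group, Hnf4a c/+ ; Six2GFPcre, has 2 libraries, and the mutant group, Hnf4a c/c ; Six2GFPcre, also has 2. Six2GFPcre is a Cre recombinase of nephron progenitors and the epithelia they form, so stroma, vessels, blood cells and collecting duct keep the allele. Both groups carry the Cre, and the controls can lose 1 of their alleles in the same cells. The labels do not say whether the libraries are from different animals or pools, and p-values measure only the spread between these libraries.

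Apolipoproteins coat lipid particles in plasma and direct them to receptors and enzymes. Hepatocytes load lipid onto the large scaffold Apob with the microsomal transfer protein Mttp, and release Apoa1 and Apoa2 as the main proteins of high-density particles. Hnf4a binds as a homodimer to direct repeats related to AGGTCA that lie 1 base apart, and many of the sites by which it was first studied lie in apolipoprotein gene promoters. In the kidney the proximal tubule takes up filtered apolipoproteins and carriers through megalin (Lrp2) and cubilin (Cubn), while Apoe is made by many cell types, macrophages among them.

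Start-site windows from RefSeq (build GRCm38.p6) were searched in the 250 bases before the start for letters of this kind, CAAAGNNCA and the repeat GNTCANNGNTCA, on both strands, where N is any base. The table held windows for 9 of the 10 genes, 12 windows in all. CAAAGNNCA was found in Apob and Apoh and in 5.49% of all 32851 windows, and GNTCANNGNTCA in Apoa1 and in 1.01% of all windows. The 3 windows with a match are shown. Each stretch runs from base -180 to base -31 before the start, 5′ to 3′, with the match in capitals; the Apob and Apoa1 matches read as the motif on the opposite strand, and no match overlaps another.
Apoa1 (chr9:46228450-46228599, + strand): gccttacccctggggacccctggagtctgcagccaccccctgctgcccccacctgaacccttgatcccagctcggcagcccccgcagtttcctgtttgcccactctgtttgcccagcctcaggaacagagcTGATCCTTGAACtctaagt
Apob (chr12:7977497-7977646, + strand): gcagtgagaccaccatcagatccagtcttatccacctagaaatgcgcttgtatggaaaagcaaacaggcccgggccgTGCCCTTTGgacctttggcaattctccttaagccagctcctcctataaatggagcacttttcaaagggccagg
Apoh (chr11:108395117-108395266, + strand): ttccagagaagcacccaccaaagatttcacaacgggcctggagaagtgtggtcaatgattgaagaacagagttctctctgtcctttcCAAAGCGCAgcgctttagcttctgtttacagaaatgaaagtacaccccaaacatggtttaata
The Apoa1 match spans bases -49 to -38, the Apob match -103 to -95 and the Apoh match -93 to -85. A match describes letters only, and binding was not measured.

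Values are FPKM, fragments scaled to transcript length and library size, so that levels can be compared between genes. The tables hold no read totals, so the depth is unknown. Hnf4a itself was at 89.3 and 84.6 FPKM in the control and 87.1 and 78.5 in the mutant libraries, which does not check the genotype because no source used here gives the deleted part. Replicate 1 of each group had the Y-linked transcript Ddx3y at 27.7 and 26.4 FPKM, control first, and Xist, of females, was at 81.0 and 74.0 FPKM in the other 2 libraries. Markers of podocytes, nephron progenitors and collecting duct were present in every library, as the kidney label implies. All 15 proximal tubule markers had negative changes, with a median log2 change of -1.27, and their summed level was 749 to 958 FPKM in control and 401 to 404 FPKM in mutant libraries. Their part in the values below was not tested. In whole tissue, fewer cells of a type and less RNA per cell cannot be told apart.

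None of the hepatic-type genes changed past the threshold. Of the 10 genes, 7 reached an FPKM of 1 in 2 or more libraries and were tested with limma on log2(FPKM + 1), and 0 were called higher and 0 lower after adjustment (threshold 0.05). Over all 13287 genes tested the same fit called 0.0452% higher and 0.113% lower. Without adjustment the count under 0.05 was 0 of 7 as well, beside 2.67% higher and 4.57% lower over all genes. With the FPKM of named genes rescaled to a common sum, all genes split at that p into 550 with positive and 507 with negative changes, in place of 355 and 607. Control and mutant libraries did not overlap for 6 of the 7 genes, 3 higher and 3 lower in mutants, where 22.7% of all genes lay apart as higher and 17.1% as lower. The median log2 change of the 7 was -0.09, beside 0.02 for all genes, and 0.24 without mutant replicate 1. With 2 libraries a group the absence of a call leaves room for change. In simulated libraries of this design limma recovered 26 of 100 genes changed by 1 and 87 of 100 changed by 2 on the log2 scale. It also called 10 unchanged genes. The changed genes were drawn only from those of higher level, so these rates do not cover Apoa1, Apoa2 and Mttp. The simulated noise followed the average spread of genes of similar level, not the spread of each gene.

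**Figure D1:**
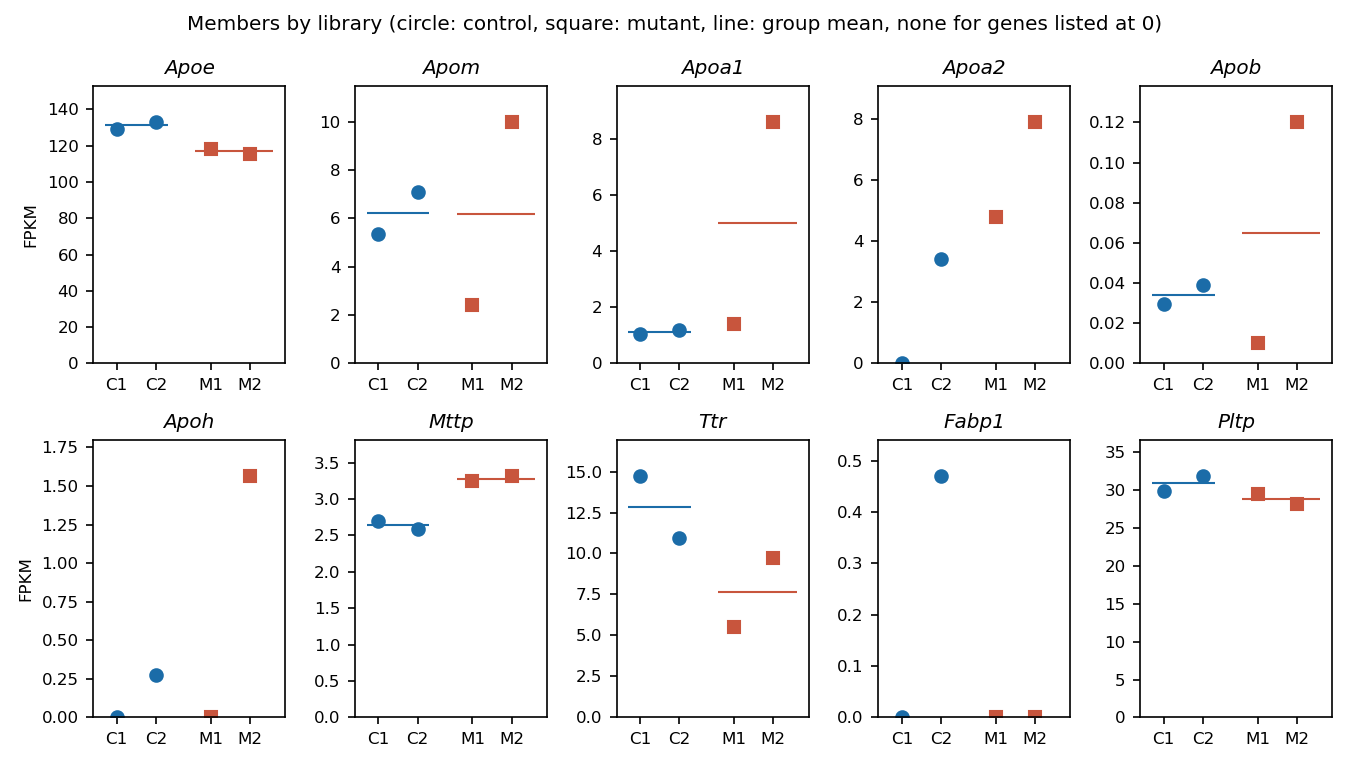
FPKM (y axis, linear from 0) of the 10 genes in control replicates 1 and 2 (C1, C2, circles) and mutant replicates 1 and 2 (M1, M2, squares), with the group mean as a line where no library is listed at 0. Apoe and Pltp lie close together in all libraries, whereas Apoa1, Apob and Apoh are each over 2 times the other libraries in mutant replicate 2.

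Apoe made up most of the RNA of these genes, 68.5% of their summed FPKM. It binds lipoprotein receptors and carries cholesterol between cells. It was at 129 and 133 FPKM in the controls and 118 and 115 in the mutant libraries. Both mutant values lay below both control values, with the mutant mean at 89.0% of control. The log2 change was -0.17 (SE 0.07), with a limma adjusted p of 0.72. In both mutant tables the FPKM of Apoe lay above the upper bound of the authors' own interval (93.3 to 114.5 FPKM in mutant replicate 1 and 91.3 to 107.9 in mutant replicate 2). The other 9 genes lay inside their intervals in every library, and 4.76% to 5.57% of table rows lay outside in the tables of control replicate 2 and the mutants, against 0 rows in control replicate 1. Macrophage markers, of cells that make Apoe, summed to 144 and 132 FPKM in control and 136 and 160 FPKM in mutant libraries, with none of the 11 measured at 0. Their part in the Apoe level was not tested.

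Pltp, the phospholipid transfer protein that moves lipid between plasma particles, was next in level. It was at 29.9 and 31.8 FPKM in control and 29.6 and 28.2 in mutant libraries. These groups do not overlap, but their gap is smaller than the distance between the control libraries. The log2 change was -0.09 (SE 0.08; limma adjusted p = 0.79), the smallest among the tested genes of the set. The Pltp locus overlaps that of Ctsa, a lysosomal protease at 47.3 and 42.8 FPKM in control and 36.3 and 37.8 in mutant libraries, so reads shared by these loci cannot be assigned with certainty.

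Below Apoe and Pltp the order of levels was loose. Ttr, Apom, Apoa2, Apoa1 and Mttp followed by mean FPKM, and the ranges of neighbours in this order overlap over the 4 libraries. Apoh, Fabp1 and Apob were at or near 0 in most libraries and, as neighbours in the order, overlapped too.

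Ttr, transthyretin, carries thyroxine and the retinol-binding protein in plasma. It was at 14.7 and 10.9 FPKM in the controls and 5.51 and 9.75 in mutant libraries. Every mutant value was below every control value, yet mutant replicate 2 came close to control replicate 2, and the authors' intervals for that pair (6.74 to 11.3 and 7.54 to 12.6 FPKM) overlap. The log2 change was -0.71 (SE 0.30), with a limma adjusted p of 0.74. It was -0.35 without mutant replicate 1 and -1.07 without mutant replicate 2, so its size depends on which mutant library is used. Rbp4, the retinol carrier that Ttr binds in plasma, named after its values were seen, was at 6.76 and 7.02 FPKM in control and 5.85 and 6.22 in mutant libraries.

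Apom, which carries sphingosine phosphate on high-density particles and is taken up through megalin, had the mutant libraries on both sides of the controls. Control libraries were at 5.35 and 7.11 FPKM, mutant replicate 1 at 2.42 and mutant replicate 2 at 9.98. The means were 6.23 ± 1.25 FPKM in control and 6.20 ± 5.34 in mutant (SD, n = 2 per group), which hides that disagreement. The log2 change was -0.23 (SE 0.60; limma adjusted p = 0.92). Without mutant replicate 2 it was -1.07 and without mutant replicate 1 it was 0.61, so 1 library decides its direction.

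Mttp, the transfer protein that loads lipid onto Apob, was the most even of the low genes. It was at 2.70 and 2.59 FPKM in control and 3.25 and 3.31 in mutant libraries. Both mutant values were above both controls, by more than the distance within either group. The log2 change was 0.23 (SE 0.15; limma adjusted p = 0.76), between 0.21 and 0.25 with each library left out in turn.

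**Figure D2:**
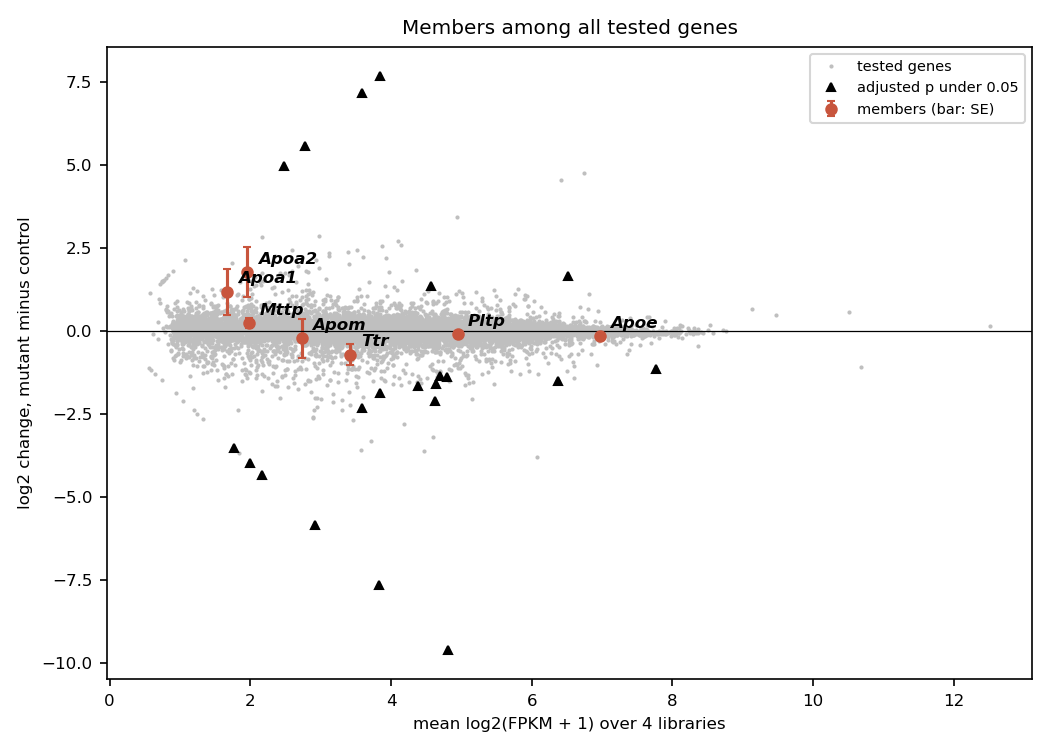
Log2 change, mutant minus control, on log2(FPKM + 1) (y axis) against the mean log2(FPKM + 1) over the 4 libraries (x axis) for all 13287 tested genes (grey), the 21 called genes (triangles) and the 7 tested genes of the set (red, bars: SE). Apoe and Pltp lie near 0, and Apoa1 and Apoa2 have positive changes with wide errors.

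The main proteins of high-density particles, Apoa1 and Apoa2, had the largest positive differences, and the size of these depended on single libraries. Apoa1 was at 1.04 and 1.20 FPKM in the controls, 1.40 in mutant replicate 1 and 8.59 in mutant replicate 2. The first 3 values lie close together, and mutant replicate 2 was 6.15 times the highest of them. The authors' interval for it, 5.36 to 9.88 FPKM, lay above the other 3 intervals, which ended at 2.21 FPKM or lower. The log2 change was 1.18 (SE 0.69; limma adjusted p = 0.76), and 0.18 without mutant replicate 2.

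Apoa2 was listed at 0 in control replicate 1, at 3.41 FPKM in control replicate 2, and at 4.79 and 7.89 in mutant replicates 1 and 2. A listed 0 can be a failed estimate, although the authors' status for this value was OK. The fitted log2 change of 1.77 (SE 0.77; limma adjusted p = 0.75) was 0.70 without control replicate 1 and 1.46 without mutant replicate 2. The authors' intervals of control replicate 2 (1.02 to 5.38 FPKM) and of both mutant libraries (1.57 to 6.01 and 3.16 to 8.58) overlap.

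The remaining genes were too low to test. Apob, the scaffold of very low-density particles, was at 0.0297 and 0.0390 FPKM in the controls, 0.00994 in mutant replicate 1 and 0.120 in mutant replicate 2. Apoh, a plasma glycoprotein that binds anionic phospholipids, was listed at 0 in control replicate 1 and mutant replicate 1, at 0.273 FPKM in control replicate 2 and at 1.56 in mutant replicate 2. Fabp1, the liver fatty acid binding protein, was at 0.470 FPKM in control replicate 2 and listed at 0 in the other libraries. Apob and Apoh were thus highest in the same library as Apoa1, and Fabp1 was not detected there. For such genes an exact permutation test of 2 against 2 libraries cannot go below a two-sided p of 0.333, and none was run.

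The high values of mutant replicate 2 came with hepatocyte markers in that library. Of the 10 genes 6 were highest in that library: Apom, Apoa1, Apoa2, Apob, Apoh and, by a small margin, Mttp. The share of all genes highest there was not computed, so such counts alone do not set these genes apart. For scale, 7 of 11 macrophage, 3 of 7 nephron progenitor and 2 of 7 podocyte markers were highest there. So were 2 of 6 collecting duct and 1 of 8 stroma and endothelium markers. The 15 proximal tubule markers give no scale, because both mutant libraries were below both controls for all 15. By a measure chosen after the values were seen, Apoa1, Apob and Apoh, 3 of the 10 genes, exceeded 2 times the highest of the other 3 libraries, as did 1.44% of all gene names above 0 in another library. Alb, serum albumin, was at 0.295 and 1.09 FPKM in the controls, 1.11 in mutant replicate 1 and 21.1 in mutant replicate 2. Ahsg, the plasma protein fetuin, and Fgg were named after their values were seen. Ahsg was at 0.209, 0.737, 0.753 and 12.5 FPKM in the same order, and Fgg, a fibrinogen chain, was at 0.103, 0.101, 0.311 and 3.13. Of 16 hepatocyte markers measured in all tables, 12 were highest in mutant replicate 2 and 6 exceeded the others by that measure. Among the exceptions, Cyp2e1 was lowest there, at 10.9, 2.21, 2.02 and 1.85 FPKM in the same order, and Asgr1 was at 1.01 and 1.42 FPKM in control and 2.89 and 2.75 in mutant libraries. Their summed level was 43.2 and 45.3 FPKM in control, 37.6 in mutant replicate 1 and 94.3 in mutant replicate 2. Apoa5 and Tat were listed at 0 in all 4 libraries, and Afp alone gave 25.2 to 40.3 FPKM of the sum. Markers of intestine summed to 1.34 to 2.44 FPKM, with Fabp2, Cdx2 and Sis at 0, and those of adrenal gland to 59.4 to 71.3 FPKM, most of it from the widely expressed Fdx1, with Cyp11b1 and Cyp21a1 at 0. The part of these cells in the values of mutant replicate 2 was not tested.

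**Figure D3:**
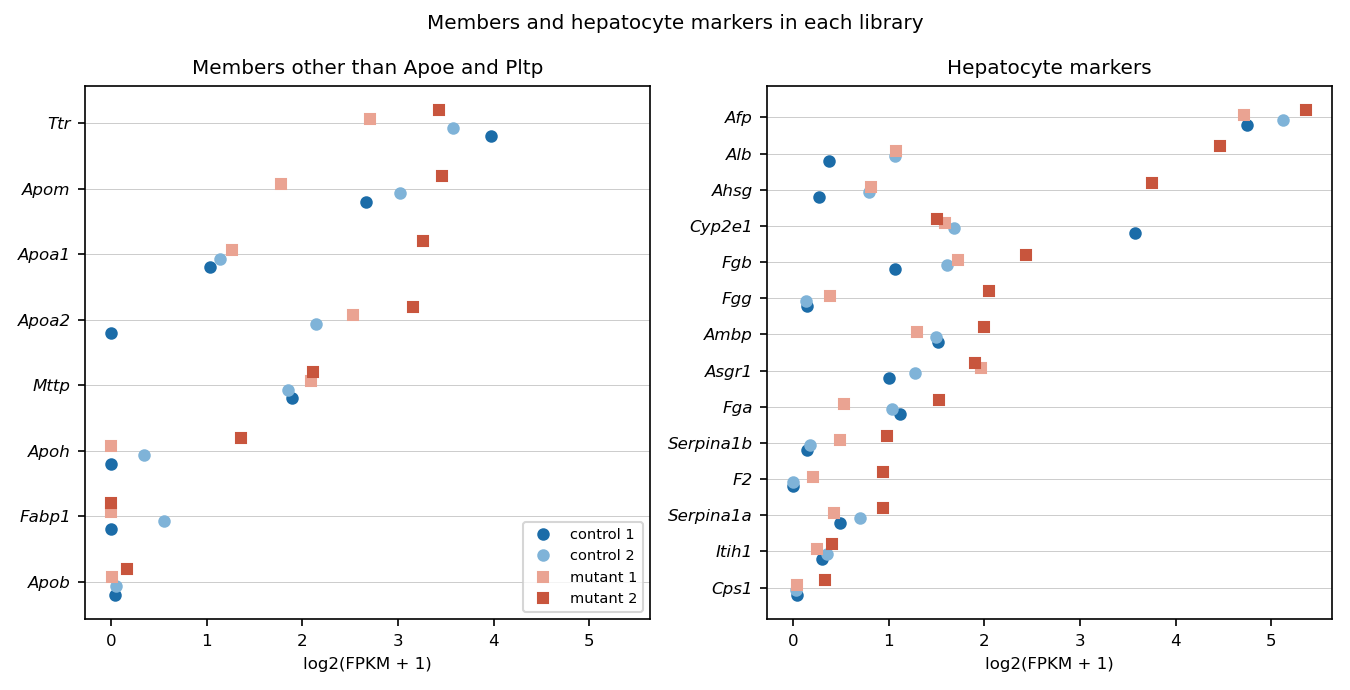
Log2(FPKM + 1) (x axis) of 8 genes of the set (left) and of the 14 hepatocyte markers above 0 in any library (right), by library (circles: control, squares: mutant; genes ordered by their highest value). Mutant replicate 2, in dark red, is highest for Apom, Apoa1, Apoa2, Apoh, Apob and Mttp and for 12 of the markers, with Alb and Ahsg farthest from the other libraries.

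Without mutant replicate 2 the log2 change of Apoa1 was 0.18 in place of 1.18, whereas Apoe and Mttp stayed close to their values (log2 changes of -0.15 and 0.22). Pltp was at -0.06 in place of -0.09, and between -0.14 and -0.05 with each library left out in turn. Ttr and Apom had larger negative changes without it, as given above.

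**Figure D4:**
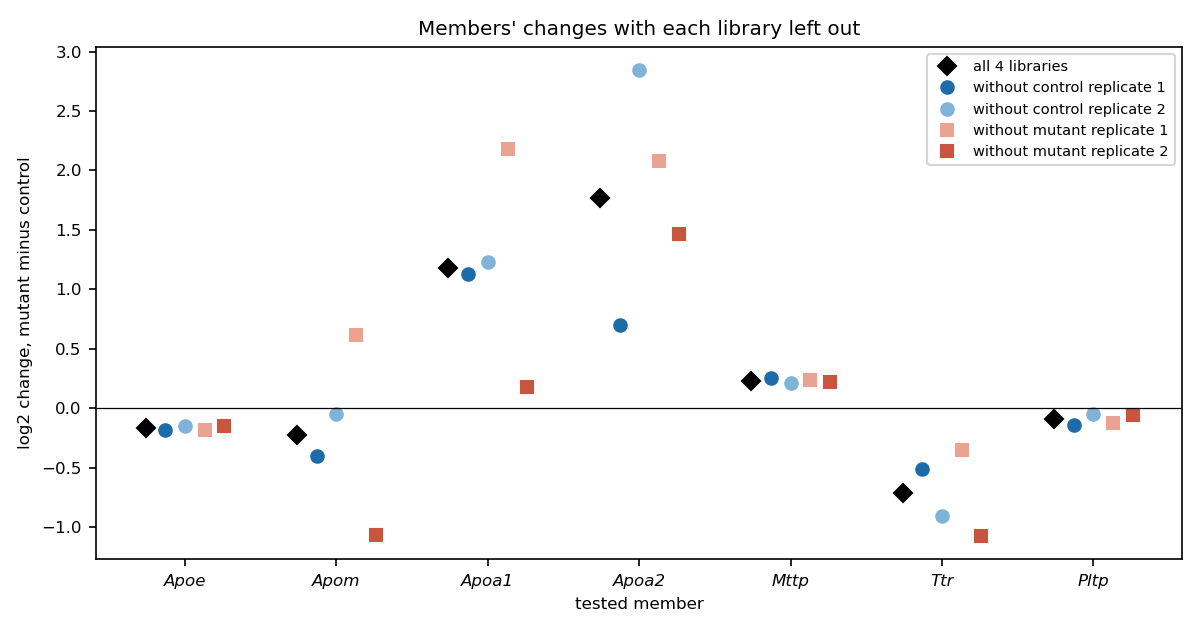
Log2 change, mutant minus control (y axis), of the 7 tested genes (x axis) with all 4 libraries (diamonds) and with each library left out (circles: a control, squares: a mutant). Only Apom crosses 0, Apoe, Mttp and Pltp move least, and Apoa1 is 0.18 without mutant replicate 2.

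The genes with the most similar pattern were found by the distance between log2(FPKM + 1) values over the 4 libraries, centred on the control mean. For Apoa1 they were Zfp354a (3.57, 3.77, 4.17 and 22.0 FPKM in control replicates 1 and 2 and mutant replicates 1 and 2; distance 0.13), Cox7b (69.7, 82.5, 79.0 and 338.6 FPKM; distance 0.16) and Pts (26.9, 28.5, 35.0 and 124.3 FPKM; distance 0.16). None of these 3 is in the list of hepatocyte markers, and whether hepatocytes express them was not tested. For Apoa2 they were Rasd1 (listed at 0, then 4.78, 4.67 and 7.06 FPKM; distance 0.49), Zfp558 (distance 0.52) and Trp53rk (distance 0.60), each lowest in control replicate 1.

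The other apolipoproteins gave no call either. Of 19 measured, 4 were tested, and 0 passed in either direction. Clu, clusterin, was at 104 and 87.1 FPKM in control and 91.3 and 93.6 in mutant libraries. Apool, a mitochondrial relative, was at 38.1 and 47.9 against 43.5 and 45.7 FPKM. Apoc1, an inhibitor of particle clearance whose gene neighbours Apoe, was at 24.3 and 37.0 against 31.0 and 42.5 FPKM. Saa1, an acute-phase apolipoprotein, was at 1.19 and 1.34 FPKM in control, 1.19 in mutant replicate 1 and 3.83 in mutant replicate 2.

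Receptors that take up lipoproteins and carriers included larger differences, short of the threshold. Of 15 tested receptor genes 0 passed, 4 had an unadjusted p under 0.05 as lower and 0 as higher, and the median log2 change was -0.14. Lrp2 was at 48.5 and 44.9 FPKM in control and 14.6 and 17.0 in mutant libraries. Its log2 change was -1.51 (SE 0.11), with a limma adjusted p of 0.0504. The limma adjusted p was 0.0373 with robust variance, the lowest of the settings tried, and 0.148 with replicate number as a block. Cubn was at 13.6 and 16.9 against 4.87 and 4.26 FPKM (limma adjusted p = 0.096). Lrpap1, the chaperone of this receptor family, was at 67.1 and 68.1 against 49.2 and 53.3 FPKM (limma adjusted p = 0.28). Lrp10, a relative in the same family, was at 62.6 and 51.7 against 52.0 and 47.9 FPKM.

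Genes of lipid loading and droplets were unlike one another. Of 18 tested 0 passed, and 3 had an unadjusted p under 0.05 as lower and 1 as higher. Cideb, a protein of lipid droplets and of very low-density particle export in liver, was at 41.0 and 35.8 FPKM in control and 15.2 and 16.0 in mutant libraries, 40.5% of the control mean. Its log2 change was -1.25 (SE 0.11), with a limma adjusted p of 0.066. The limma adjusted p was 0.0463 with robust variance, the lowest of the settings tried, and 0.169 with replicate number as a block. Dgat2, which makes triglyceride, was at 38.5 and 38.9 FPKM in control and 20.8 and 22.7 in mutant libraries (log2 change -0.80, SE 0.09; limma adjusted p = 0.096). Dgat1, which catalyses the same step and was named after its values were seen, was at 20.7 and 21.0 against 28.0 and 32.5 FPKM (log2 change 0.51, SE 0.11; limma adjusted p = 0.32). P4hb, the partner subunit of Mttp, was at 154 and 151 against 146 and 139 FPKM, and Arf1, a coat regulator of secretion, at 149 and 153 against 153 and 147 FPKM. The groups lay apart for Cideb, Dgat2, Dgat1 and P4hb and overlapped for Arf1.

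Among 11 tested lipases and remodelling genes 0 passed, and 2 had an unadjusted p under 0.05 as lower and 0 as higher. Pon3, a lactonase carried on high-density particles, was at 5.59, 15.8 and 15.8 FPKM in the first 3 libraries and 52.3 in mutant replicate 2. Gpihbp1, which holds lipoprotein lipase on endothelium, was at 55.5 and 61.5 against 61.2 and 50.4 FPKM, and Lipa, the lysosomal lipase, at 30.9 and 33.0 against 25.5 and 32.6. Of 9 tested genes of cholesterol and lipid efflux and handling, 0 passed and 0 had an unadjusted p under 0.05. The sterol receptor Nr1h2 was at 49.6 and 42.5 against 43.8 and 46.0 FPKM, and Npc2 at 39.6 and 42.2 against 41.3 and 40.0. Mylip was at 117% of its control mean, and Abcg1 at 6.84 and 5.07 against 4.68 and 5.26 FPKM.

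**Figure D5:**
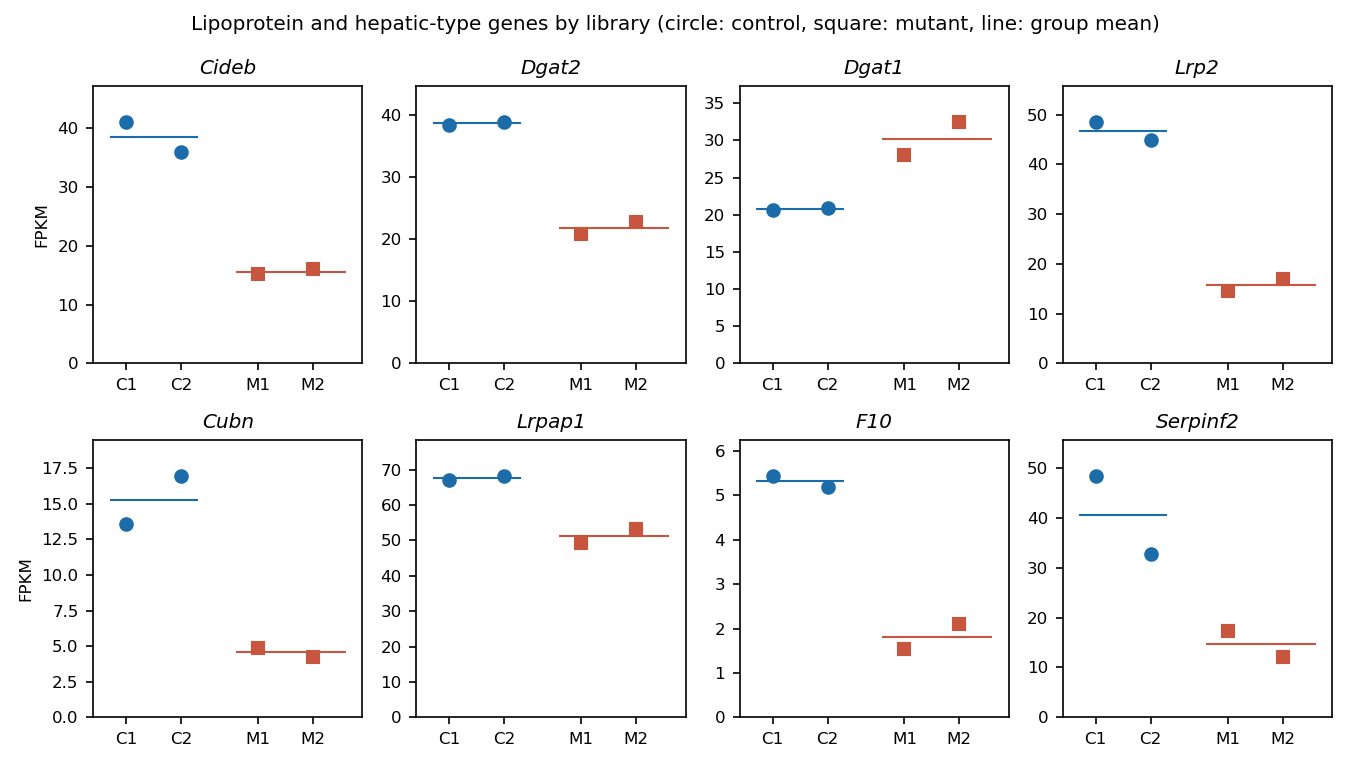
FPKM (y axis, linear from 0) of 8 other lipoprotein and hepatic-type genes in control replicates 1 and 2 (C1, C2, circles) and mutant replicates 1 and 2 (M1, M2, squares), with group means as lines. The groups lie apart in every panel, with Dgat1 higher and the others lower in mutants, and none passed an adjusted p under 0.05. These 8 were chosen with their values known, and the groups overlapped for other named genes such as Lrp10 and Arf1. Over all tested genes, 22.7% lay apart as higher and 17.1% as lower.

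Of the relatives of Fabp1, Fabp4 and Fabp3 were abundant, whereas Fabp2, Fabp6 and Fabp9 were listed at 0 in every library. Of 12 tested genes for binding fatty acids or retinoids, 0 passed and 0 had an unadjusted p under 0.05. Fabp4 was at 179 and 207 FPKM in control and 207 and 182 in mutant libraries, and Fabp3 at 147, 146 and 142 FPKM in the first 3 libraries and 258 in mutant replicate 2. Rbp2, of retinol binding in the cell, was at 3.21 and 5.18 against 1.47 and 3.30 FPKM. Among 13 tested genes of retinol and thyroid hormone handling, in which Ttr takes part, 0 passed, and 2, Aldh1a1 and Lrat, had an unadjusted p under 0.05 as higher. Lrat, which esterifies retinol and was named after its values were seen, was at 0.659 and 0.701 FPKM in control and 1.66 and 1.40 in mutant libraries (limma adjusted p = 0.54). Aldh1a1, a retinal dehydrogenase, was at 7.17 and 6.66 FPKM in control and 11.6 and 11.6 in mutant libraries (log2 change 0.67, SE 0.12; limma adjusted p = 0.25). Aldh1a2, the main retinoic acid enzyme of kidney stroma, was at 106 and 115 against 116 and 113 FPKM, and the receptor Thra at 79.7 and 92.0 against 93.6 and 86.2.

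Hepatic-type genes beyond lipoproteins held both patterns. Of 16 tested genes for plasma proteins 0 passed, 3 had an unadjusted p under 0.05 as lower and 0 as higher, 8 had positive and 8 negative changes, and the median log2 change was 0.04, or -0.08 without mutant replicate 2. In that list 10 of 40 measured genes exceeded 2 times the other libraries in mutant replicate 2. Over all gene names above 0 in another library the share was 1.44%. That share leaves out genes such as Hamp and Serpinc1, which count among the 10 but were listed at 0 in the other libraries. Of the 10, F2, Plg, Itih3, Serpina1b and Serpinc1 stayed below an FPKM of 1. The list shares Ahsg, Fgg and others with the hepatocyte markers. Serpinf2, an inhibitor of plasmin, was at 48.3 and 32.8 FPKM in control and 17.2 and 12.2 in mutant libraries (limma adjusted p = 0.25), and F10, a clotting factor, at 34.3% of its control mean of 5.31 FPKM (limma adjusted p = 0.18). Serpina6, which carries glucocorticoids, was at 61.3 and 33.8 against 22.9 and 18.1 FPKM, and Serpinf1 at 34.2 and 32.8 against 32.1 and 31.1. Mutant replicate 2 was not the highest library for any of these 4.

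Of 14 tested metabolic genes shared by liver and proximal tubule, 0 passed, 13 had negative changes, 7 with an unadjusted p under 0.05, and the median log2 change was -0.73 with or without mutant replicate 2. Pck1, the enzyme that commits carbon to glucose synthesis, was at 33.7 and 34.6 FPKM in control and 11.1 and 12.6 in mutant libraries. Its log2 change was -1.46 (SE 0.10), with a limma adjusted p of 0.0504. The limma adjusted p was 0.0361 with robust variance, the lowest of the settings tried. Hgd, of tyrosine breakdown, was at 21.1 and 12.3 against 4.56 and 5.72 FPKM, and Acadm, of fatty acid oxidation, at 90.3 and 97.5 against 82.9 and 86.5. Both mutant libraries were below both controls for 11 of these 14 genes, beside 17.1% of all genes. Their difference from the apolipoproteins was not tested.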

How the data were processed

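FPKM values and the bounds of their intervals were computed by the authors and deposited as 1 table per library. The submitters' processing notes name Cufflinks 2.1.1, TopHat2 2.0.11, SAMtools 0.1.19, Bowtie 1.0.0 and build mm9; no source used here gives the annotation or options, and the labels' protocols (poly(A) selection, a DNA library kit) do not describe strand. Loci were assembled per library, but those of the 10 genes were identical in all 4 tables. FPKM was summed over rows sharing a symbol; of 22761 names in all tables, 99 with a row not marked OK were left out. Genes reaching an FPKM of 1 in 2 or more libraries entered the test, on log2(FPKM + 1), which understates changes of low genes, with limma 3.58.1 in R 4.3.3 (eBayes with trend, two-sided, Benjamini-Hochberg over all genes, threshold 0.05). Members and gene lists were chosen with earlier results of these data known. Named genes are the members and, per list, called genes or else the 2 highest in mean FPKM and the 2 with the largest change; others are said to be named after their values were seen. Some genes the rule names are not reported here. The fit was tested on simulated data, and 15 alternatives were tried.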

Additional observations from a re-analysis of the deposited data

How the results depend on the processing

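No tested member passed the threshold under any of the 15 alternatives, and 101 of 102 of their recomputed log2 changes kept their direction; that of Apom ranged from -1.07 to 0.61 with libraries left out, 0.61 being without mutant replicate 1. Leaving out a library leaves 1 in its group, assumed to vary like the other group, and few calls over all genes, so the lack of calls there shows no stability. Another filter, variance model or replicate block cannot move the log2 change of a gene. The same holds for the highest row of a symbol in the members. Directions kept under these settings were fixed beforehand and show no stability. The median of the tested members was 0.24 without mutant replicate 1 and ranged from -0.14 to 0.24 with libraries left out. Over all genes, 6 were called higher and 15 lower. Leaving out a library gave 0 to 5 higher and 0 to 9 lower, with 0 in both directions without either control library (at an unadjusted p under 0.05, 290 higher and 739 lower without control replicate 1, and 1169 and 1124 without control replicate 2). Lower calls numbered 35 with no filter, 26 with a minimum FPKM of 5, 23 with median-centring, 29 with robust variance and 7 without a variance trend. No label says that the replicate number pairs libraries, although Ddx3y and Xist differ between the numbers in the same way in both groups. Replicate differences in control and mutant correlated at 0.147 across genes, and with the replicate block 3 genes were higher and 3 lower, 0 of them members. Of the listed other genes, 0 were called lower, and 2 with a pseudocount of 0.1, 1 with no filter, 2 with a minimum of 5, 2 with median-centring, 3 with robust variance and 2 with the highest row of a symbol. The changes of other named genes reversed in 22 of 492 cases. With a common FPKM sum they were 0.0002 for Nr1h2, 0.025 for Npc2 and 0.024 for Arf1, and 0.013 for Arf1 with quantile normalization. With libraries left out, those that reversed ranged from -0.16 to 0.085 for Clu, -0.10 to 0.22 for Apool, -0.044 to 1.09 for Saa1, -0.024 to 0.56 for Apoc1, -0.21 to 0.066 for Gpihbp1, -0.32 to 0.028 for Lipa, -0.14 to 0.077 for Nr1h2, -0.053 to 0.037 for Npc2, -0.040 to 0.022 for Arf1, -0.090 to 0.12 for Fabp4, -0.049 to 0.81 for Fabp3, -0.0045 to 0.11 for Aldh1a2 and -0.034 to 0.17 for Thra. The cause was not tested. Unknown depth limits what the low members can show.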

Other observations

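Further genes were highest in mutant replicate 2 and were chosen after their values were seen. Apoc2, the activator of lipoprotein lipase, was listed at 0 in control replicate 1 and was at 0.257 FPKM in control replicate 2, 0.262 in mutant replicate 1 and 1.36 in mutant replicate 2. Apoc4, its neighbour in the Apoe cluster, was listed at 0 in 3 libraries and at 1.14 FPKM in mutant replicate 2. Ttpa, the tocopherol transfer protein, was at 0.857 and 1.50 FPKM in control libraries, 1.77 in mutant replicate 1 and 5.87 in mutant replicate 2. Hamp, the iron hormone hepcidin, was listed at 0 in 3 libraries and at 1.26 FPKM in mutant replicate 2. Apoc3 went the other way, at 0.850 and 1.60 FPKM in control and 0.543 and 0.469 in mutant libraries.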
